A study of Mus musculus with 12 samples.

Results

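Untreated peritoneal macrophages of Nfkbiz-/- mice were compared with untreated peritoneal macrophages of wild-type mice across 19938 genes. The comparison uses 6 of the study's 12 arrays, 3 knockout and 3 wild-type arrays chosen by their titles. The other 6 arrays hold both genotypes after lipopolysaccharide (LPS, a bacterial cell-wall component) at 1 µg/ml for 4 h. They entered the estimate of the spread and are given side by side for genes that differed at rest. All mice were female. Wild type was C57Bl/6, and the strain label of the knockout reads Nfkbiz-/-. The shared protocol text names C57Bl/6 mice for all groups. The age of the mice, the breeding of the knockout line and the design of the deleted allele are unknown here. Cells were washed out of the peritoneal cavity with cold buffer and cultured for 2 h in 96-well plates, with neither a sort nor an eliciting agent described. Nothing in the labels says that replicates of a group were separate mice. The p-values therefore rest on the spread among these samples alone, and that spread may be technical.

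Nfkbiz encodes IκBζ, a nuclear member of the IκB family that binds NF-κB p50 at promoters and is known mainly for its part in genes that LPS or interleukin-1 induce after a delay. Resident peritoneal macrophages fall into a large, Gata6-dependent population and a small, monocyte-derived population that carries MHC class II. They supply much of the chemokine that draws neutrophils and monocytes into the cavity, and part of their gene program depends on retinoic acid and on lipid-sensing nuclear receptors.

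A level is the deposited intensity of a gene's probe set, and the 3 values of a group follow the order of replicates 1, 2 and 3 throughout. A difference is log2 knockout minus wild type, given with its standard error (SE) from limma. A gene was called when its limma p-value, adjusted by Benjamini-Hochberg over all 19938 genes, was under 0.05. Median intensity lay between 110.4 and 118.7 on the 6 untreated arrays. Arrays of a group correlated at 0.986 to 0.996 across genes. The general macrophage markers bore out the labelled cell type on all 6 arrays: Lyz2, the lysozyme gene, read at least 14500, Csf1r, the receptor for macrophage colony-stimulating factor, at least 8778, and Cd68, a lysosomal glycoprotein, at least 7662.

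The knockout arrays were less alike than the wild-type arrays. Knockout replicate 2 lay at least 2-fold above both other knockout arrays at 45 genes and at least 2-fold below both at 85 genes. Knockout replicate 3 lay above both others at 72 genes and below both at 4, and knockout replicate 1 at 3 and 4 genes. On each wild-type array these counts were 6 above and 7 to 11 below. Knockout replicate 2 was low at Arg1, Il1b and Ptgs2 and high at Timd4, knockout replicate 3 was high at interferon-stimulated genes, and knockout replicates 1 and 3 shared a group of genes at which replicate 2 matched wild type. Where knockout replicate 2 or 3 carried much of a gene's difference, the difference without that array is given beside it.

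**Figure D1:**
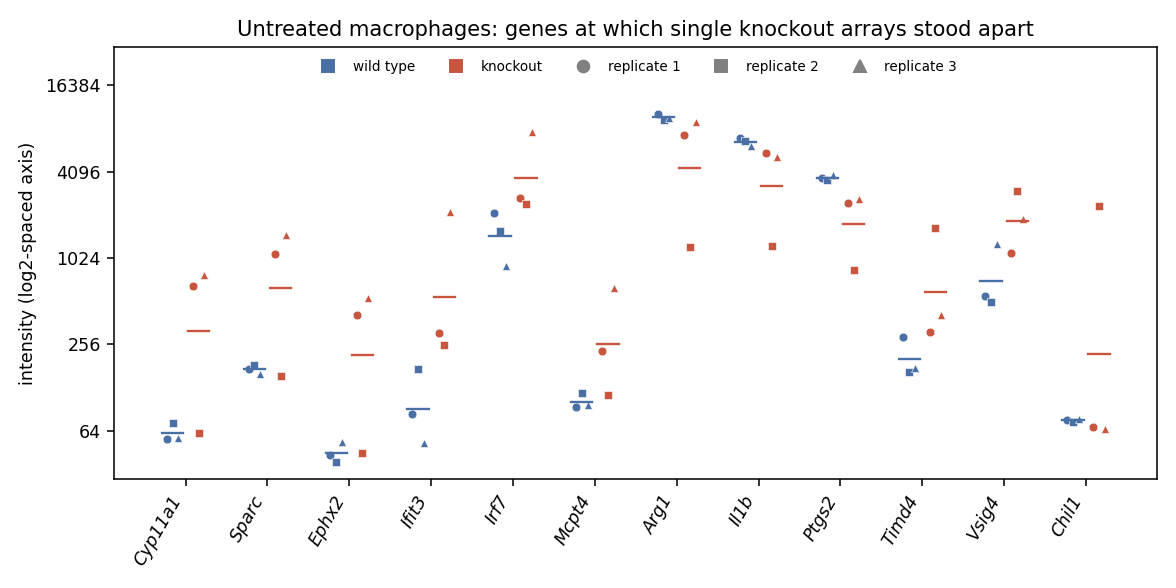
Intensity of 12 genes on the 6 untreated arrays, on a log2-spaced axis. Blue marks wild type and red knockout, the symbol shape gives the replicate, and the bar is the mean on the log2 scale. The genes were chosen after their values were seen. At Cyp11a1, Sparc and Ephx2 knockout replicates 1 and 3 lie above the other arrays, at Ifit3, Irf7 and Mcpt4 replicate 3 lies highest, at Arg1, Il1b and Ptgs2 replicate 2 lies lowest, and at Timd4, Vsig4 and Chil1 replicate 2 lies highest.

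The targeted gene itself was lower in the knockout at rest. Nfkbiz read 462.6, 430.7 and 406.3 in wild type against 266.9, 285.6 and 274.4 in the knockout, with no overlap between the groups. The difference was -0.65 (SE 0.10, limma adjusted p = 0.0401). Whether the probes fall inside the deleted sequence is unknown here, and the signal left in the knockout cannot be read as a level of functional mRNA. None of the 100 tested genes nearest to Nfkbiz was called by limma. Groups did not overlap at 7 of them in the higher direction and at 8 in the lower, against 4.88% and 11.5% of all genes. The lowest adjusted p among them was that of Tbc1d23 (0.91, SE 0.16, limma adjusted p = 0.0872), a gene chosen after its values were seen, and 24 of the 100 were olfactory receptor genes.

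At rest the genotypes differed at 15 of 19938 genes, which is 0.0752%. Of these, 8 were lower in the knockout (0.0401%) and 7 were higher (0.0351%). The lower genes were the chemokine genes Ppbp, Cxcl3, Cxcl5, Ccl3 and Cxcl2, the mannose receptor gene Mrc1, the retinaldehyde dehydrogenase gene Aldh1a2 and Nfkbiz. The higher genes were Me1, Orm1, Adgre4, Lrrk2, Acsf2, Vamp5 and Cdca7l. Of the 15, 9 differed at least 2-fold. At an unadjusted p under 0.05, 1731 of the 19938 genes stood apart in the limma fit, 1175 lower and 556 higher, and the median difference over all genes was -0.03. Counts at this level in the gene lists below are to be read against these counts over all genes. Centring each array on its median gave 19 called genes, of which 63.2% were higher against 46.7% here. All 3 knockout arrays lay below the wild-type range at 2283 genes (11.5%) and above it at 973 genes (4.88%).

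**Figure D2:**
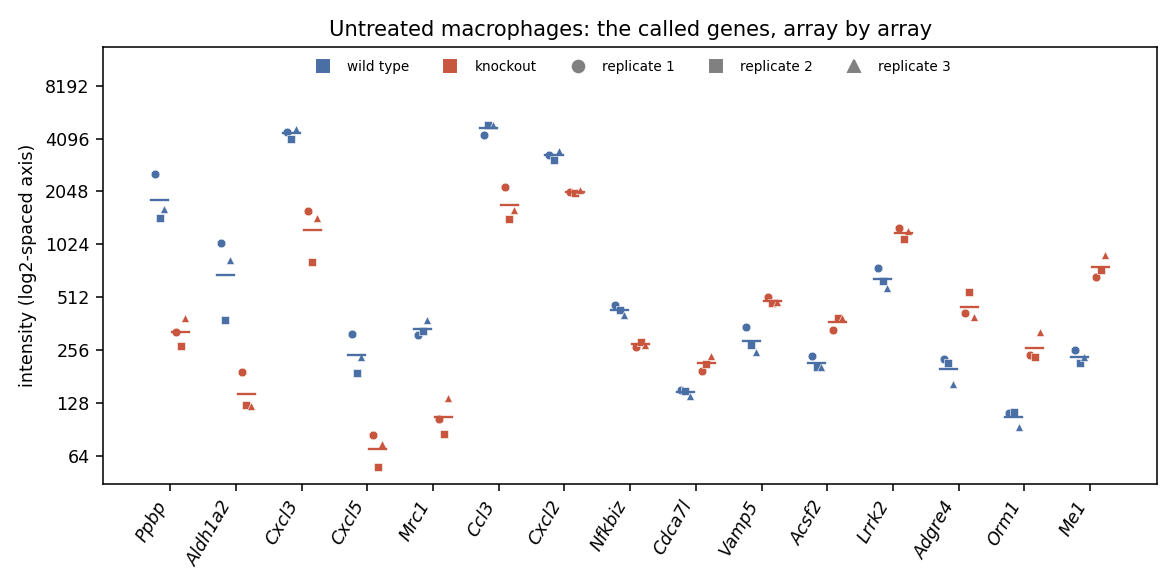
Intensity of the 15 called genes on each untreated array, on a log2-spaced axis, ordered from the most negative to the most positive difference. Blue marks wild type, red marks knockout, the symbol shape gives the replicate and the bar is the mean on the log2 scale. No red symbol overlaps the blue range of its gene, and Ppbp shows the widest gap, with knockout at 267.9 to 389.1 and wild type at 1441 to 2560.

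The calls differed in how far they rested on single arrays. In the 12 fits that each left out 1 array, Ppbp (-2.66 to -2.24), Me1 (1.58 to 1.79), Ccl3 (-1.63 to -1.32), Cxcl2 (-0.73 to -0.64) and Cxcl3 (-2.02 to -1.54) were called every time. Without wild-type untreated replicate 3, Cxcl5 (-1.81, limma adjusted p = 0.0561) and Orm1 (1.22, limma adjusted p = 0.0633) missed the threshold. Mrc1 missed it without any of the untreated arrays but knockout replicate 3 (-1.84 to -1.50 over the 12 fits). Lrrk2 (0.79 to 0.98) missed it in 6 fits, without wild-type replicate 2 or 3, knockout replicate 1 or 3, or either genotype's LPS replicate 1. Vamp5 (0.67 to 0.90) missed it in 8 fits, without any untreated array but wild-type replicate 1, without LPS replicate 1 of either genotype, or without wild-type LPS replicate 3. Acsf2 (0.74 to 0.86) and Nfkbiz (-0.70 to -0.60) missed it without any untreated array or LPS replicate 1 of either genotype. Aldh1a2 (-2.69 to -1.96) missed it in 9 fits, every untreated array but wild-type replicate 2 among them, and without wild-type LPS replicate 1 or 2 or knockout LPS replicate 1 or 3. Cdca7l (0.48 to 0.62) kept its call only without knockout untreated replicate 1 or knockout LPS replicate 2. Adgre4 (1.02 to 1.26) kept it only without knockout LPS replicate 2 or 3. The adjusted p of these genes rose to at most 0.211 in such fits, and no difference changed sign. When limma was fitted to the 6 untreated arrays alone, 2 genes were called, Ppbp and Me1. Without both arrays of knockout replicate 2, untreated and LPS-treated, 81 genes were called, 63 higher and 18 lower, 13 of the 15 among them. On knockout replicate 2, which was among the arrays that made the calls, all 15 genes lay outside the wild-type range, with differences from -2.76 at Ppbp to 1.64 at Me1.

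Chemokine genes made up 5 of the 8 lower genes. Of 35 measured chemokine genes, 5 were called lower and 0 higher by limma, 11 were lower and 1 higher at an unadjusted p under 0.05, and the median difference was -0.12. Arrays did not overlap at 12 genes in the lower direction and at 1 in the higher, where all genes gave 11.5% and 4.88%. The genes that attract neutrophils through the receptor CXCR2 lie beside each other on chromosome 5, and 4 of them were lower.

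Ppbp encodes the CXCR2 ligand CXCL7, best known from platelets. It read 2560, 1441 and 1628 in wild type against 324.8, 267.9 and 389.1 in the knockout (-2.49, SE 0.20, limma adjusted p = 0.000939). The lowest wild-type array stood above the highest knockout array by a wide margin. Cxcl3 read 4486, 4089 and 4624 in wild type against 1581, 813.6 and 1449 in the knockout (-1.84, SE 0.20, limma adjusted p = 0.00475). Knockout replicate 2 was the lowest of the 6 arrays at this gene. Cxcl5, whose product is another CXCR2 ligand, was the dimmest of the group, at 315.2, 189.6 and 232.9 against 83.44, 55.15 and 74.11 (-1.78, SE 0.21, limma adjusted p = 0.00785). Cxcl2, which encodes MIP-2, differed least but most evenly. It read 3280, 3080 and 3497 in wild type against 2033, 2017 and 2081 in the knockout (-0.68, SE 0.06, limma adjusted p = 0.00121).

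Their neighbours in the same gene cluster did not all share this pattern. In chromosome order the cluster runs Cxcl5, Ppbp, Pf4, Cxcl3, Cxcl15, Cxcl1 and Cxcl2. Pf4, a platelet factor gene that macrophages also express, read 10450, 9640 and 9675 in wild type against 7913, 7511 and 8263 in the knockout, without overlap but not called (-0.33, SE 0.08, limma adjusted p = 0.274). Cxcl1, next to Cxcl2 in this order, read 453.3, 449.2 and 485.1 against 736.5, 370.2 and 700.4. Its groups overlapped through knockout replicate 2 (0.32, SE 0.25, limma adjusted p = 0.738, and 0.64 without replicate 2). Cxcl15 was dim on all arrays (0.02). Farther along the chromosome lie the interferon-inducible Cxcl9 (0.42), Cxcl10 (0.75) and Cxcl11 (0.11) and the B-cell attractant Cxcl13 (-0.06), none of which was called. Cxcl10 read 609.9 on knockout replicate 3 and 120.1 to 214.8 on the other 5 arrays, and its difference without that replicate was 0.14.

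The sequence upstream of these genes is shown because close neighbours, such as Cxcl1 and Cxcl2, differed in their result. Each line gives the 250 bases before the transcript start, 5′ to 3′ on the gene's strand, from RefSeq on GRCm38.p6. Capitals mark matches to GGGANNTTCC, a narrow form of the κB site that NF-κB dimers bind, searched on both strands from 250 bases before to 50 after the start. The stretches are chr5:90768268-90768517 for Ppbp, chr5:90785851-90786100 for Cxcl3, chr5:90890995-90891244 for Cxcl1 and chr5:90903649-90903898 for Cxcl2, all on the plus strand, and chr11:83649379-83649628 for Ccl3 on the minus strand.
Ppbp: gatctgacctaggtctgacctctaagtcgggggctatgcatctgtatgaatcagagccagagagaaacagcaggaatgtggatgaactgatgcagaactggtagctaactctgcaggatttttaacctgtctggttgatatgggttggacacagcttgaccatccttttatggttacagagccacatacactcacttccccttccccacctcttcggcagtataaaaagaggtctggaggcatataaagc
Cxcl3: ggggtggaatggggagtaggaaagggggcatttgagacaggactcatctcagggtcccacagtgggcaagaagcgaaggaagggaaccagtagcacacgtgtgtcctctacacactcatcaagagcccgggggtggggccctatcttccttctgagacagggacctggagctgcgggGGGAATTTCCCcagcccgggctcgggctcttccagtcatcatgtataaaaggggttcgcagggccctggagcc
Cxcl1: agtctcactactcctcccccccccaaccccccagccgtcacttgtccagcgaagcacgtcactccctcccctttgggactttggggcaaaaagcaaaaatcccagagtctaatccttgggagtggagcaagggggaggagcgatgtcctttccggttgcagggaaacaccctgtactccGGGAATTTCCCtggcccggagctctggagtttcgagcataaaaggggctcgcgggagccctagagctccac
Cxcl2: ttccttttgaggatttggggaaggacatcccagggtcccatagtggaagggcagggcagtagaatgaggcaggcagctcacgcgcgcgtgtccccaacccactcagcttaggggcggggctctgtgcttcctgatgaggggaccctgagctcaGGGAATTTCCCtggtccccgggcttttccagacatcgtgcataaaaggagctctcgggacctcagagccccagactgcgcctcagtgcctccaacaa
Ccl3: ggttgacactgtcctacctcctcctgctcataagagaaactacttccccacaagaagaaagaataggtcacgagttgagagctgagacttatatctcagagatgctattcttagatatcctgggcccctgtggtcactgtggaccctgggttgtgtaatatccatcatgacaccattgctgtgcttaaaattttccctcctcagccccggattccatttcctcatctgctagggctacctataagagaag

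Cxcl3, Cxcl1 and Cxcl2 hold the same stretch, GGGAATTTCCC, which matches on both strands with the 2 matches overlapping. It begins 73 bases before the start in Cxcl3, 71 in Cxcl1 and 97 in Cxcl2. Cxcl3 and Cxcl2 were lower in the knockout and Cxcl1 was not called. No match lies in these windows of Ppbp or Ccl3, which were both lower. Of 32851 RefSeq promoters of this length, 482 hold a match (1.47%). Among the 12 called genes with a promoter in the table, 2 hold it, and among 25 chemokine genes with a promoter, 5 hold it, which are Ccl1, Cxcl1, Cxcl10, Cxcl2 and Cxcl3. A match is a description of these letters and not a measured binding site.

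**Figure D3:**
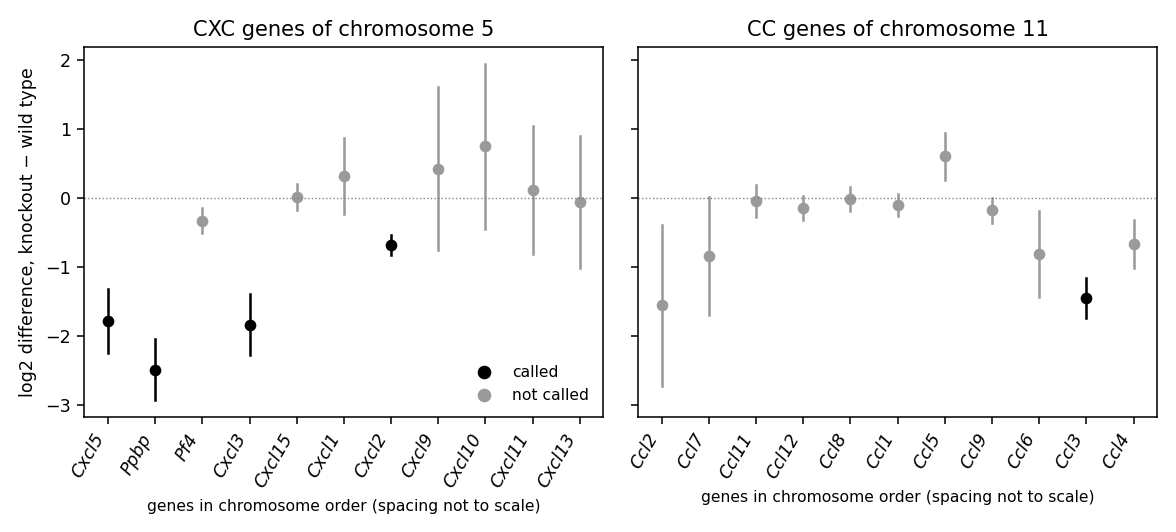
Log2 difference between untreated knockout and wild-type cells (vertical axis) for chemokine genes of chromosome 5 (left) and chromosome 11 (right), in chromosome order. Points are limma estimates, bars their 95% confidence intervals, and black marks called genes. Cxcl5, Ppbp and Cxcl3 lie between -1.78 and -2.49 while Cxcl15 and Cxcl1 lie at or above 0, and on chromosome 11 Ccl3 is called while its neighbour Ccl4 is not.

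Among the 18 CC chemokine genes, Ccl3 was called lower and 17 genes were not called. Ccl3 encodes the inflammatory chemokine MIP-1α. It read 4282, 4918 and 4862 in wild type against 2183, 1422 and 1606 in the knockout (-1.45, SE 0.13, limma adjusted p = 0.00121). Its neighbour Ccl4, which encodes MIP-1β, read 224.7, 211.5 and 193.8 against 140.5, 124.3 and 131.4, also without overlap, but was not called (-0.67, SE 0.16, limma adjusted p = 0.216). Ccl2, the monocyte attractant gene named in the study's title, read 869.2, 291.1 and 544.3 against 120.8, 142.1 and 313.7. The groups overlapped at Ccl2 because knockout replicate 3 read above wild-type replicate 2 (-1.56, SE 0.53, limma adjusted p = 0.442).

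The most negative difference of all 19938 genes belonged to Ccl17, a ligand of CCR4 made by macrophages and dendritic cells. It read 2861, 1171 and 2854 in wild type against 250.2, 91.01 and 331.8 in the knockout, apart on every array but too variable within groups to pass (-3.44, SE 0.57, limma adjusted p = 0.0656). Ccl22, which shares its receptor, read 2955, 1465 and 2176 against 819.4, 300 and 854.7 (-1.83, SE 0.47, limma adjusted p = 0.276). In both genes replicate 2 was the lowest array of each genotype. Ccl6 (-0.81) and Ccl7 (-0.84) likewise had every knockout array below every wild-type array without passing. Ccl5, which encodes RANTES, was the exception in direction, at 3234, 2494 and 1970 in wild type against 4216, 3295 and 4004 in the knockout (0.60, SE 0.15, limma adjusted p = 0.276). Ccl24, an eotaxin gene, overlapped widely because knockout replicate 2 read 2564 where the other 2 read 909.7 and 539.6 (-0.73, and -1.36 without replicate 2).

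No chemokine receptor gene was called by limma among 22 measured, and 2 had an unadjusted p under 0.05. Their median difference was -0.01 and turned positive after quantile normalization (0.02) or centring on the median (0.03). Ccr7, which guides cells to lymph nodes, read 3784, 2095 and 2759 in wild type against 1215, 612.7 and 1147 in the knockout without overlap (-1.56, SE 0.50, limma adjusted p = 0.416). Ccrl2, an atypical receptor gene, read 550.3, 522.5 and 402.3 against 732.1, 1074 and 622.4 (0.69, SE 0.24, limma adjusted p = 0.442). Cxcr2, the receptor for the lower CXC chemokines, was near the bottom of the intensity range in both genotypes (20.35 to 26.24).

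Among 36 genes of alternative activation, the macrophage state driven by interleukin-4 and interleukin-13, Mrc1 was called lower and none was called higher by limma. Groups did not overlap at 10 genes in the lower direction (11.5% of all genes) and at 1 in the higher (4.88%), and the median difference was -0.13. The gene lists share members, and Ccl17 counts both here and among the CC chemokine genes. Mrc1 encodes the mannose receptor CD206. It read 311.4, 326.2 and 378.3 in wild type against 104.1, 84.85 and 136.2 in the knockout, with no overlap (-1.67, SE 0.22, limma adjusted p = 0.0220). Pdcd1lg2, which encodes the checkpoint ligand PD-L2, read 303.7, 136.7 and 201.1 against 85.65, 56.8 and 89.94 without overlap (-1.42, SE 0.26, limma adjusted p = 0.0942).

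Several classical markers of this state differed mainly through knockout replicate 2. Arg1, which encodes arginase 1, read 10350, 9412 and 9682 in wild type against 7377, 1215 and 9063 in the knockout (-1.18, SE 0.83, limma adjusted p = 0.716). Without replicate 2 its difference was -0.26. Socs2, a feedback inhibitor of cytokine receptors, read 2323, 1928 and 2350 against 1191, 374.7 and 1626 (-1.29, and -0.65 without replicate 2). Il4ra, the receptor subunit gene for both driving cytokines, read 4476, 4412 and 4379 against 3578, 1953 and 3915 (-0.55, and -0.24 without replicate 2). Retnla, which encodes the secreted marker RELMα, had its highest knockout level on that array. It read 251.2, 221.5 and 127.7 against 79.41, 176.1 and 64.81 (-0.99, and -1.42 without replicate 2). The transducer gene Stat6 (-0.04), the nuclear receptor genes Pparg (-0.04) and Ppard (-0.10), Chil3 (-0.12) and Trem2 (0.05) were not called, and Chil3 was dim in both genotypes. Tgm2, a transglutaminase gene, read 2828, 1693 and 1858 against 3105, 2530 and 3216 (0.50, SE 0.16, limma adjusted p = 0.420).

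Among the lipid enzymes, Me1 stood out. Me1 encodes the cytosolic malic enzyme, which supplies NADPH for fatty acid synthesis. It read 255.5, 215.7 and 232.2 in wild type against 667.7, 729.6 and 893.8 in the knockout (1.70, SE 0.14, limma adjusted p = 0.000939). A second probe set of Me1 gave 1.73 on its own readings of 210.3, 186 and 198.3 against 555.5, 651.4 and 777. The groups were far apart with both probe sets.

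The other enzymes of the same pathway differed less. Of 28 measured genes of fatty acid synthesis and NADPH supply, Me1 was called higher and 27 genes were not called. Groups did not overlap at 5 genes in the higher direction (4.88% of all genes) and at 0 in the lower (11.5%), and the median difference was 0.03. Acaca, which encodes the acetyl-CoA carboxylase of the committed step, read 869.8, 1059 and 1039 against 1378, 1683 and 1604 (0.65, SE 0.15, limma adjusted p = 0.212). Fads2, a desaturase gene, read 184.1, 177.8 and 178.6 against 255.4, 230.8 and 228.8 (0.40, SE 0.13, limma adjusted p = 0.421). Fasn, the fatty acid synthase gene (-0.03), and the NADPH-supplying Pgd (-0.001), Idh1 (-0.07) and Tkt (0.10) overlapped between genotypes. Scd1, the stearoyl-CoA desaturase gene, read 1133, 440.8 and 563.4 against 500.1, 275.8 and 441.4 and overlapped too (-0.74, SE 0.45, limma adjusted p = 0.686).

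Regulators of lipid synthesis were not called. Of 17 genes of the SREBP1, ChREBP and LXR axis, limma called 0 and 2 had an unadjusted p under 0.05. Nr1h3, which encodes the sterol-sensing receptor LXRα, read 289, 228 and 208.7 against 348.1, 326 and 300.6 (0.44, SE 0.11, limma adjusted p = 0.274). Mylip, an LXR target gene, read 635.9, 544.8 and 545.2 against 715.4, 1096 and 740.9 (0.54, SE 0.15, limma adjusted p = 0.309, and 0.34 without knockout replicate 2). Other genes of this axis were mixed. Abca1 lay at -0.33, Abcg1 at -0.07 and Srebf1 at -0.11, whereas Pltp lay at 0.20 and Apoc1 at 0.72 (0.10 without knockout replicate 3). Of the 17 genes, 11 lay above 0 and 6 below. Of 18 sterol synthesis genes 0 were called by limma and 1 had an unadjusted p under 0.05, which was Dhcr7, the last enzyme of the pathway (0.38, SE 0.10). Among 21 genes of triglyceride handling and lipid droplets limma called 0 and 2 had an unadjusted p under 0.05, Fabp4 (0.62, and 0.32 without knockout replicate 2) and Gpam (0.44).

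In fatty acid oxidation, Acsf2 was called higher among 29 measured genes and 28 were not called. Acsf2 encodes a mitochondrial acyl-CoA synthetase. It read 235.9, 206 and 205.7 in wild type against 330.4, 390.7 and 389.1 in the knockout (0.78, SE 0.11, limma adjusted p = 0.0387), and its second probe set gave 0.63. The genes of the carnitine shuttle and of β-oxidation itself lay close to 0, such as Cpt1a (-0.01), Cpt2 (0.22), Acadm (-0.11), Acadvl (-0.03) and Hadha (-0.06). Pdk4, which curbs glucose oxidation, read 330.2 on knockout replicate 3 and 78 to 145.3 elsewhere (0.78, and 0.29 without replicate 3).

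Aldh1a2 was called lower among 19 genes of retinoid metabolism and signalling. It encodes RALDH2, the enzyme that makes retinoic acid from retinaldehyde. It read 1035, 380.3 and 827.7 in wild type against 192.9, 125 and 123.4 in the knockout (-2.26, SE 0.34, limma adjusted p = 0.0441). The wild-type arrays varied widely, with replicate 2 lowest, yet all lay above the knockout range. The retinoic acid receptor gene Rara read 1151, 944.5 and 1164 against 716.6, 621.9 and 862.6 and did not overlap (-0.57, SE 0.16, limma adjusted p = 0.309). Its relatives Rarg (0.08), Rxra (0.15), Rxrb (0.14), Rarb (0.19) and Rxrg (0.51) were not called. Of the 19 genes, 5 had an unadjusted p under 0.05 in the limma fit, 3 lower and 2 higher. Groups did not overlap at 5 in the lower direction (11.5% of all genes) and at 2 in the higher (4.88%).

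Of 21 eicosanoid enzyme genes limma called 0, and 5 had an unadjusted p under 0.05, 3 of them lower. Ptgs2, the inducible cyclooxygenase gene, read 3681, 3565 and 3906 against 2480, 849 and 2625, apart on every array and lowest on knockout replicate 2 (-1.07, SE 0.32, limma adjusted p = 0.362, and -0.54 without replicate 2). Pla2g4a, the phospholipase gene that frees arachidonic acid, read 3097, 2682 and 2791 against 2383, 1168 and 2789 and overlapped (-0.53, and -0.15 without replicate 2). Alox15, the lipoxygenase of large peritoneal macrophages, read 7386, 7077 and 9076 against 8517, 8093 and 8356 (0.09). Ephx2, the soluble epoxide hydrolase gene, read 38.9 to 53.11 on the wild-type arrays and on knockout replicate 2 (44.98) but 408.7 and 533.6 on knockout replicates 1 and 3.

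The identity genes of large peritoneal macrophages were not called in either direction. Of 37 measured, limma called 0, and 9 had an unadjusted p under 0.05, 8 of them higher. Groups did not overlap at 9 genes in the higher direction (4.88% of all genes) and at 4 in the lower (11.5%), and the median difference was 0.03. The summed intensity of the list was 129900 to 136200 in wild type and 131600 to 135900 in the knockout. Its mean log2 level was 10.31, 10.19 and 10.21 in wild type against 10.37, 10.43 and 10.42 in the knockout, without overlap. Gata6, the transcription factor gene that defines this population, read 1397, 1263 and 1598 in wild type against 1907, 1783 and 1933 in the knockout without overlap (0.41, SE 0.23, limma adjusted p = 0.669). Adgre1, which encodes F4/80, read 7927, 7051 and 8447 against 6406, 6702 and 6925 (-0.22, SE 0.08, limma adjusted p = 0.485). Tgfb2, a growth factor gene of these cells, read 1000, 1266 and 1006 against 1724, 2222 and 1510 (0.73, SE 0.15, limma adjusted p = 0.156).

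Timd4 and Vsig4 were highest on knockout replicate 2, while the uptake receptor genes Marco and Axl were not. Timd4, the phosphatidylserine receptor gene of long-resident macrophages, read 289.6, 162.6 and 175.4 in wild type against 313.4, 1646 and 407 in the knockout (1.56, SE 0.57, limma adjusted p = 0.470, and 0.82 without replicate 2). Vsig4, a complement receptor gene, read 551.9, 506.1 and 1281 against 1108, 2993 and 1901 (1.38, and 1.03 without replicate 2). Cd5l, of the scavenger and uptake list, lay at 0.76, and at 0.25 without replicate 2. Marco, a scavenger receptor gene, was low on wild-type replicate 3 alone (1284, 934.7 and 247.1 against 1645, 1102 and 1010). Axl, a receptor tyrosine kinase gene of apoptotic cell uptake, was lowest among the knockout arrays on replicate 2 and highest on replicate 3 (672.3, 707.1 and 707.5 against 1229, 909.5 and 2181), with a difference of 0.95 and 0.60 without that array.

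Among 24 genes of small peritoneal macrophages and MHC class II, Mrc1 was called lower and 23 were not called. Groups did not overlap at 8 in the lower direction (11.5% of all genes) and at 1 in the higher (4.88%). Itgax, which encodes CD11c, read 1594, 1469 and 1036 against 918.7, 972.3 and 513.9 (-0.80, SE 0.26, limma adjusted p = 0.423). Folr2, a folate receptor gene, read 229.7, 202.7 and 142 against 111.4, 136.5 and 119.4 (-0.62, SE 0.17, limma adjusted p = 0.303). Ahr, the aryl hydrocarbon receptor gene, read 888.2, 847.6 and 964.6 against 679.1, 544.7 and 712 (-0.49, SE 0.15, limma adjusted p = 0.392). The MHC class II genes did not follow: H2-Aa (0.12), H2-Eb1 (0.05), Cd74 (0.16) and Ciita (-0.05) overlapped between genotypes. H2-Ab1 (0.44) and H2-DMa (0.31) lay above 0, as did Aif1 (1.11), the highest difference of the list. Of the 24 genes, 9 lay above 0 and 15 below. In bulk samples fewer cells of a type and less RNA per cell cannot be told apart.

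Adgre4 was called higher among the 23 general macrophage genes. It encodes EMR4, an adhesion receptor of the F4/80 family, and read 226.3, 217.1 and 163.9 in wild type against 417.8, 548.8 and 395.1 in the knockout (1.16, SE 0.17, limma adjusted p = 0.0401). The other 22 were not called, and Csf1r (0.06), Cd68 (0.14), Spi1 (-0.09), Cd14 (0.02) and Lyz2 (0.05) lay close to 0. Of the 23 genes 18 lay above 0, and groups did not overlap at 5 in the higher direction (4.88% of all genes) and at 0 in the lower (11.5%). The summed intensity of the list was 123900 to 131000 in wild type and 130400 to 139600 in the knockout. Tlr4, the LPS receptor gene, read 2086, 1718 and 2055 against 1325, 895.1 and 1974 (-0.55, and -0.27 without knockout replicate 2).

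**Figure D4:**
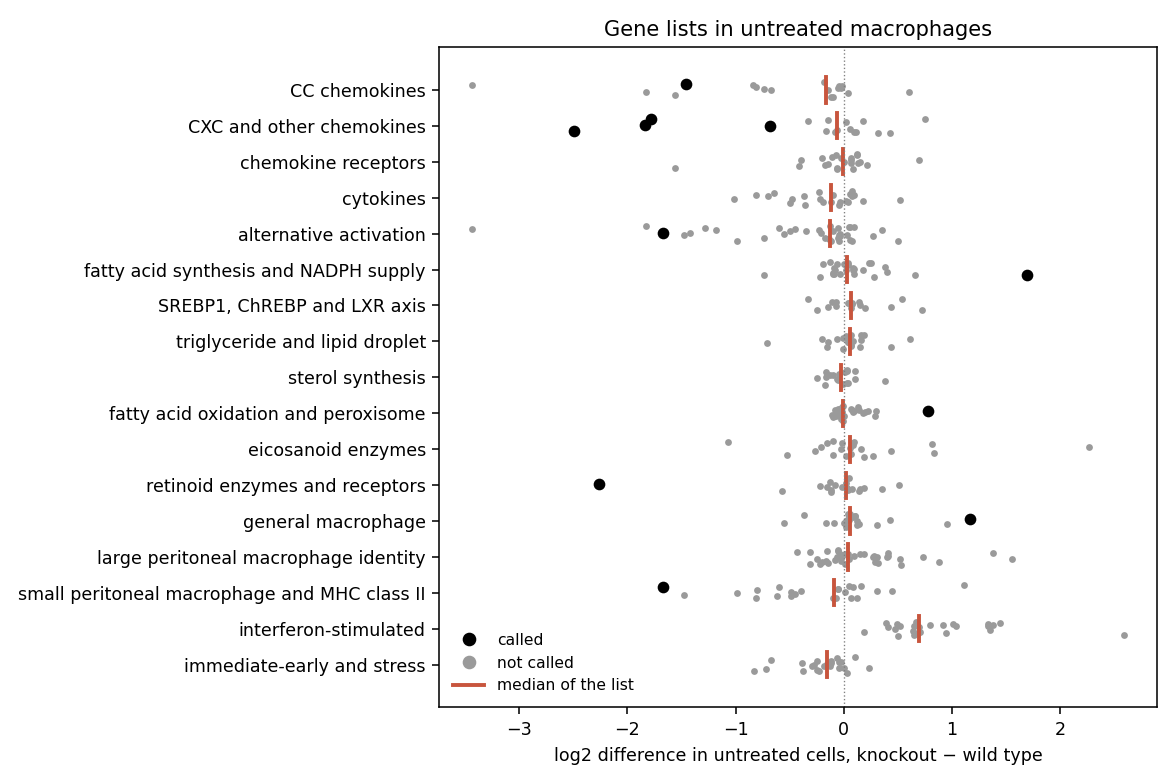
Log2 difference between untreated knockout and wild-type cells (horizontal axis) for the measured members of 17 gene lists. Grey points are genes not called, black points called genes, and the red bar is the median of the list. Most medians lie within 0.17 of 0, and the interferon-stimulated list lies apart at 0.70.

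Markers of other cells that a peritoneal wash can hold were compared as lists. Ppbp and Pf4 are also platelet genes, so the platelet and megakaryocyte list bears on the first result. Of its 12 measured genes Ppbp was called lower and 11 were not, and its summed intensity was 12900 to 14460 in wild type and 9221 to 10090 in the knockout, most of it from Pf4. Of the 12, 10 lay below 0, with a median of -0.14, and 3 had an unadjusted p under 0.05, all lower (Ppbp, Pf4 and Alox12). Clec1b (-0.30), Treml1 (-0.15), Gp5 (-0.15) and Itgb3 (-0.13) were not called. Nearest to 0 lay Vwf (0.02), Itga2b, the integrin gene that defines the lineage (145.9, 123.6 and 130 against 129.5, 140.4 and 130.5), and Gp9 (103, 97.55 and 97.9 against 103.8, 98.49 and 95.22). Their part in the Ppbp difference was not tested. The neutrophil list summed to 11540 to 11700 in wild type and 10170 to 10800 in the knockout, with Ly6g, its defining surface marker, at 55.73 to 78.05 on all 6 arrays and Mmp8 (-0.40) and Csf3r (0.16) the brightest members.

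The dendritic cell list was lower in sum, at 5438 to 7806 in wild type and 3169 to 4620 in the knockout. Its brightest members were Ccr7 and Fscn1, an actin-bundling protein gene that read 2145, 978.6 and 1973 against 773.8, 531.7 and 915 (-1.15, SE 0.35, limma adjusted p = 0.372). Zbtb46, the factor that defines the lineage, read 171.7, 165.5 and 162.3 against 163.3, 143.2 and 140.9, and Flt3 read 165.7, 112.7 and 128.7 against 108.1, 76.35 and 111.5. Cd209a was lower in mean level too (-1.48), whereas Clec9a (0.56) and Bst2 (0.59) lay above 0. The sum was lower in the same arrays as Ccl17, Ccl22, Pdcd1lg2 and Aldh1a2, which dendritic cells also express, and the list's part in those differences was not tested. Limma called 0 of its 12 genes, and 5 had an unadjusted p under 0.05, all lower.

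Limma called 0 genes in the B cell list of 13 (1 at an unadjusted p under 0.05), the T and NK cell list of 16 (3), the eosinophil list of 7 (0), the mast cell list of 10 (0), the mesothelial and stromal list of 15 (2) and the red cell list of 3 (0). Summed B cell intensity was 2100 to 3196 in wild type and 2220 to 2993 in the knockout. The T and NK cell sum was 2115 to 2571 against 1818 to 1921, and the mesothelial and stromal sum 3313 to 3510 against 2773, 1629 and 3253, both without overlap. The T and NK cell genes were split in direction, with 8 above 0 and 8 below. Their mean log2 level overlapped, at 6.23, 6.08 and 6.10 in wild type against 6.08, 6.09 and 6.13 in the knockout. The part of these lists in the genotype differences was not tested. The mast cell sum was 1534 to 1585 in wild type and 2026, 1548 and 3479 in the knockout, so it was high on knockout replicates 1 and 3. Mcpt4, a mast cell protease gene, read 92.89, 116.2 and 95.76 against 230.9, 113.8 and 630.9 (1.33, and 0.68 without replicate 3). Pdpn, a podoplanin gene in the mesothelial list, read 142.5 on knockout replicate 2 and 1264 to 1967 on the other 5 arrays (-1.34, and -0.20 without replicate 2).

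The remaining called genes came from other pathways. Orm1 encodes orosomucoid, an acute-phase plasma protein. It read 111.4, 113.3 and 93.54 in wild type against 239.3, 233.1 and 323.6 in the knockout (1.31, SE 0.15, limma adjusted p = 0.00785). Its relatives Orm2 (-0.02) and Orm3 (-0.13) were not called, and such near-identical genes can share probe signal. Lrrk2, the leucine-rich repeat kinase gene, read 751.9, 632.8 and 580.6 against 1274, 1098 and 1213 (0.87, SE 0.12, limma adjusted p = 0.0284). A second, dimmer probe set of Lrrk2 gave 0.51. Vamp5, a SNARE protein gene, read 345.7, 271.7 and 249.9 against 512.8, 473.3 and 477.5 (0.77, SE 0.11, limma adjusted p = 0.0380). Cdca7l, a Myc-binding protein gene, read 150.4, 148.8 and 140.8 against 194.4, 214.1 and 236.5 (0.55, SE 0.08, limma adjusted p = 0.0387).

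Cytokine genes were not called at rest. Of 23 measured, limma called 0 and 3 had an unadjusted p under 0.05, all lower. Groups did not overlap at 8 in the lower direction (11.5% of all genes) and at 1 in the higher (4.88%). Il1a, an alarmin gene, read 5031, 4658 and 4926 against 3058, 2348 and 3766 (-0.70, SE 0.14, limma adjusted p = 0.134). Il1b read 6977, 6736 and 6174 against 5483, 1239 and 5141, lowest on knockout replicate 2 (-1.02, and -0.32 without it). Tnf (0.02) and Il6 (-0.64, and -0.29 without replicate 2) overlapped. In the acute-phase and antimicrobial list of 20, where Orm1 was called, Lcn2, the siderophore-binding lipocalin gene, read 206.3, 266.5 and 109.1 against 68.19, 72.94 and 66.91 without overlap (-1.39, SE 0.25, limma adjusted p = 0.0928). Cfb, the complement factor B gene, read 3821, 2538 and 1790 against 5844, 5325 and 7104, also without overlap (1.22, SE 0.25, limma adjusted p = 0.142). Among 14 IκB and Rel family genes and regulators, Nfkbiz was called and 13 were not, with Nfkbia at -0.32, Rela at 0.07 and Nfkb2 at -0.01. Of 23 immediate-early and stress genes limma called 0 and 3 had an unadjusted p under 0.05, all lower, such as Jun (-0.38) and Fosl1 (-0.39). In this list 19 genes lay below 0 and 4 above, with a median of -0.16. Arrays did not overlap at 7 in the lower direction (11.5% of all genes) and at 0 in the higher (4.88%). Of 11 genes known to depend on IκBζ under stimulation limma called 0, and 2 had an unadjusted p under 0.05, both lower. Of these 11, 8 lay below 0 and 3 above, with a median of -0.24. Groups did not overlap at 3 in the lower direction (11.5% of all genes) and at 0 in the higher (4.88%). Of 25 cell cycle genes limma called 0 and 4 had an unadjusted p under 0.05, 3 lower and 1 higher. Mrc1, which was lower, was the 1 gene called among 23 scavenger and uptake receptors, although 15 of the 23 lay above 0. At an unadjusted p under 0.05 limma gave 9 of them, 7 higher and 2 lower. Groups did not overlap at 5 in the higher direction (4.88% of all genes) and at 3 in the lower (11.5%).

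Interferon-stimulated genes stood higher in the knockout as a list, and most of that came from knockout replicate 3. All 25 measured genes had a difference above 0 under each of the 4 scalings tried, with a median of 0.70, but limma called 0 and 2 had an unadjusted p under 0.05. Their mean log2 level was 8.80, 8.71 and 8.13 in wild type against 9.06, 8.76 and 10.44 in the knockout. Without knockout replicate 3 the median was 0.29, and without wild-type replicate 3 it was 0.54. Groups did not overlap at 7 of the 25 genes in the higher direction (4.88% of all genes) and at 0 in the lower (11.5%). Irf7, the master regulator of the response, read 2112, 1583 and 905.3 against 2683, 2434 and 7690 (1.35, and 0.82 without replicate 3), and Ifit3, an antiviral effector gene, read 83.34, 172 and 52.23 against 304.2, 253.8 and 2131 (2.59, and 1.61 without replicate 3). Both genes had knockout above wild type on every array, and wild-type replicate 3 was the lowest of the 6.

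With LPS, 1623 genes were called between the genotypes (8.14%), and 12 of the 15 genes that differed at rest were among them in the same direction. The contrasts share no arrays but share the fitted spread, and they may not be independent: same-numbered untreated and LPS arrays correlated in their deviations at 0.322, 0.568 and 0.459 in the knockout and at -0.07, 0.143 and 0.359 in wild type. Whether same-numbered arrays came from the same mice is unknown here. Without wild-type LPS replicate 3 the count was 7. Me1 stayed near its resting difference (1.55 with LPS), as did Orm1 (1.29), Lrrk2 (0.93), Mrc1 (-1.77) and Ppbp (-2.07). Their interactions, the test of the change in the genotype difference, were not called (limma adjusted p from 0.583 to 0.978). Cxcl5 read 1779, 1687 and 2217 in wild type with LPS and 259.8, 261.9 and 367.9 in the knockout, a difference of -2.68, and its interaction was not called (-0.90, SE 0.30, limma adjusted p = 0.206). Cxcl3 lay at -1.84 at rest and at -0.85 with LPS, and its interaction was not called either (0.99, SE 0.28, limma adjusted p = 0.151).

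The exceptions, called at rest but not with LPS, were Ccl3, Cxcl2 and Cdca7l. Ccl3 read 14690, 15040 and 13910 with LPS in wild type and 11510, 13350 and 12570 in the knockout (-0.22, SE 0.13, limma adjusted p = 0.386). Its interaction was 1.23 (SE 0.19, limma adjusted p = 0.0136). Cxcl2 read 11030, 11130 and 10710 with LPS against 10640, 10620 and 10430 (-0.05, SE 0.06, limma adjusted p = 0.736), with an interaction of 0.63 (SE 0.09, limma adjusted p = 0.00932). The brightest probe set of each array read 20946 to 22642, and the part of the array's upper range in these interactions was not tested. Cdca7l read 143.8, 136.3 and 134.5 with LPS against 147.4, 134.8 and 135.2 (0.01), and its interaction was not called (-0.54, SE 0.11, limma adjusted p = 0.0612).

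**Figure D5:**
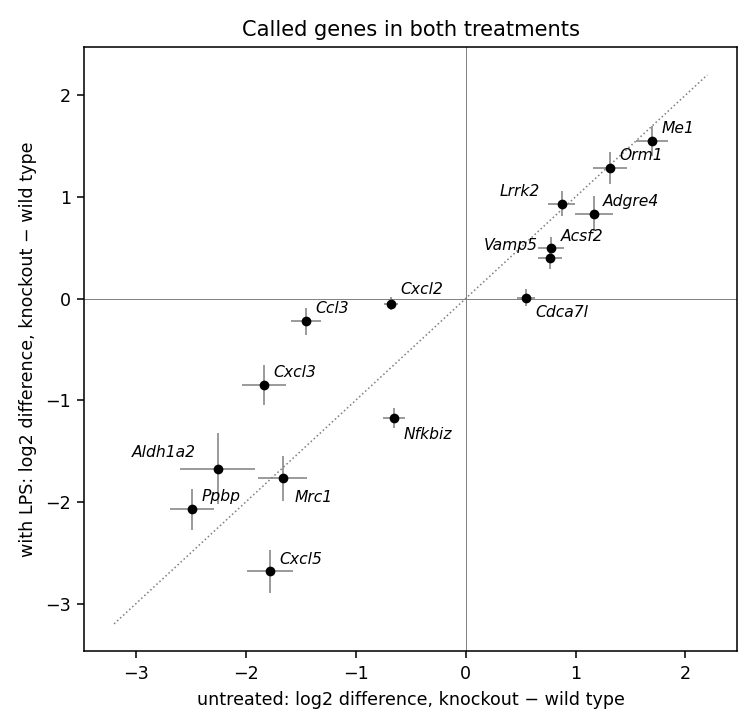
Log2 difference between knockout and wild type in untreated cells (horizontal axis) and with LPS (vertical axis) for the 15 genes called at rest. Points are limma estimates, bars their standard errors, and the dotted line marks equal differences. Ccl3 and Cxcl2 lie near 0 on the vertical axis (-0.22 and -0.05), Cdca7l lies at 0.01, and Cxcl5 (-2.68) and Nfkbiz (-1.17) lie below the line.

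The threshold fell between genes of similar evidence. Just inside it lay Nfkbiz and Aldh1a2. Just outside lay Slc39a14, a zinc and iron transporter gene, at 655.8, 564.3 and 548 in wild type against 390.7, 283.6 and 362.7 in the knockout (-0.78, limma adjusted p = 0.0534). Next came Tst, a mitochondrial sulfurtransferase gene, at 225.3, 207.1 and 148 against 419.8, 396.4 and 345.2 (1.02, limma adjusted p = 0.0576).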

How the data were processed

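Transcripts were measured on 12 Affymetrix arrays, 3 for each of 4 groups. The deposited values are linear intensity, 1 per probe set, and the submitters' processing notes name RMA and Affymetrix Expression Console 1.1, without settings. RMA usually makes the distributions of arrays alike, which would hide a shift shared by most transcripts. Log2 was taken without a pseudocount. GEO's platform annotation gave 1 symbol to 21789 of the 35556 probe sets, several to 1621 and none to 12146. The probe set with the highest mean over 12 arrays was kept for each of 19938 genes. Limma 3.58.1 in R 4.3.3 (lmFit, eBayes, two-sided) fitted 4 group means with 8 residual degrees of freedom. The script was tested on simulated data. The number of arrays limits the precision.

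Named are Nfkbiz, Ccl2, called genes (up to 20 in each direction, passing over predicted genes, small RNAs, pseudogenes and olfactory or vomeronasal receptors), measured members of 31 gene lists, called neighbours of Nfkbiz and the 2 genes on each side of the threshold. Members and lists were chosen with earlier results of these data known. Alternatives were other scalings, filters, thresholds and fits, and leaving out each array.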

Additional observations from a re-analysis of the deposited data

Results flagged for a closer look

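The genotype difference itself differed between untreated and LPS-treated cells, by limma's interaction test over all genes, at 6 genes named above. The interaction, LPS minus untreated on the log2 scale, was 1.23 at Ccl3 and 0.63 at Cxcl2, which were lower in the untreated knockout. It was -3.24 at Lcn2, -1.73 at Mylip, -1.28 at Ahr and -0.85 at Csf3r, none of which was called at rest.

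A pair of probe sets annotated with several gene symbols stood outside the comparison of genes and were higher in the untreated knockout. The first read 92.32, 69.44 and 100.2 in wild type against 220.4, 319.8 and 253.1 in the knockout (1.60). The second read 57.95, 50.58 and 56.32 against 116.7, 162.3 and 143.5 (1.35). Both had a limma adjusted p of 0.00631 over all probe sets, and no gene is named from them.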

How the results depend on the processing

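Against 15 genes called at rest, quantile normalization gave 23, centring on the 75th percentile 25, genes above the median level 23 and array weights 46. An adjusted p under 0.01 left 7, a 2-fold minimum 9 and the 6 untreated arrays alone 2. Leaving out 1 array gave 6 to 23, with 6 without wild-type untreated replicate 3, 9 without knockout untreated replicate 1, 8 without LPS replicate 1 of either genotype and 23 without knockout LPS replicate 2. Without both arrays of knockout replicate 2, an alternative chosen after seeing the data, the count was 81. Of 5 chemokine genes called, 1 was called with the 6 untreated arrays alone, and 4 to 6 when 1 array was left out, where the median of the 35 lay between -0.15 and -0.09. Of the 12 genes also called with LPS, 7 were called at an adjusted p under 0.01, 7 with the 2-fold minimum and 7 to 12 when 1 array was left out. Of the 2 interactions, array weights gave 4, the stricter p 1, the 2-fold minimum 1 and each omission 2. Same-numbered untreated arrays of the 2 genotypes correlated in their deviations at -0.02, 0.03 and 0.03, and differently numbered ones at -0.10 to 0.09. Whether a number was shared by both genotypes, such as a day of work, is unknown here. Within the knockout, same-numbered untreated and LPS arrays deviated together. A fit with the replicate number as a block called 30 genes, 13 of the 15 among them. A random block for arrays of 1 genotype and number, added after seeing the data, called 20, all 15 among them. None of the 15 called genes changed sign under these settings. The medians of 5 lists (chemokine receptors, sterol synthesis, fatty acid oxidation, T and NK cell, red cell) turned from below to above 0 under quantile normalization and median centring, and that of the CXC and other chemokines went from -0.06 to 0.04 without wild-type untreated replicate 1 and to 0.03 without knockout untreated replicate 3. With 3 arrays a group, a gene that missed the threshold is not shown to be unaffected.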

Other observations

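Some genes, chosen after their values were seen for this pattern, were high on knockout replicates 1 and 3 and not on knockout replicate 2. Cyp11a1, the first enzyme of steroid synthesis, read 55.64, 72.03 and 56.96 in wild type against 652.2, 61.24 and 779.2 in the knockout. Sparc, a matrix protein gene, read 170.8, 184.7 and 159.1 against 1095, 154.4 and 1469, and Inha, the inhibin subunit gene, read 93.04, 84.84 and 82.59 against 169.6, 82.62 and 171.4. Other ovarian genes were mixed. Star read 79.4, 74.88 and 80.38 in wild type against 130.9, 64.99 and 89.82 in the knockout. Nr5a1 read 156.4, 138.9 and 132.2 against 161.5, 131.5 and 169.2. Cyp17a1 read 61.87, 58.79 and 60.78 against 68.2, 57.7 and 64.6. These genes were highest on knockout replicates 1 and 3, by small margins at Nr5a1 and Cyp17a1. Foxl2 (-0.20), Amh (-0.20), Fshr (-0.09) and Akr1c18 (0.07) did not share the pattern, and Hsd3b1 (0.29) was dim on all arrays. A list of 12 ovarian genes, 10 of them measured, took most of its rise from Cyp11a1. It summed to 793.4 to 875.1 in wild type and to 1590, 759.2 and 1639 in the knockout. With LPS it summed to 887.3 to 941.9 in wild type and to 1562, 911.5 and 1858 in the knockout. Its part in the genotype differences was not tested.

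Chil1, which encodes a chitinase-like protein, read 2356 on knockout replicate 2 and 65.62 to 77.38 on the other 5 untreated arrays. Its difference was 1.54, and -0.18 without that array.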
